A study of Rattus norvegicus with 16 samples.

Results

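Heat shock proteins and their DnaJ partners were followed in the hippocampus and frontal cortex of young and old male rats of the LOU/C/Jall strain, an inbred line used as a model of successful aging. The genes were taken by name: every gene on the array whose symbol begins with Hspa, Hspb, Hspd, Hspe, Hsph, Hsp90, Dnaja, Dnajb or Dnajc and goes on to a digit, or to letters and then a digit. The rule found 72 genes among 16961, and 62 of them were bright enough to be tested among 10054 genes tested in all. They comprise 10 Hsp70 genes, 3 genes of the Hsp110 group, 3 Hsp90 genes, 2 mitochondrial chaperonin genes, 7 small heat shock protein genes, and 4, 12 and 25 DnaJ genes of classes A, B and C. A further 6 share only the spelling: Hspbp1 and Hspbap1, which encode proteins that bind heat shock proteins, Hspb11, now named Ift25, and the Hspd1 pseudogenes Hspd1-ps2, Hspd1-ps3 and Hspd1-ps21.

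The 4 groups were young hippocampus, old hippocampus, young frontal cortex and old frontal cortex, with 4 one-colour arrays each. Old rats were 26 months of age. Young rats were 5 months old by the sample labels and 3 months old by the series text, and which is right is not settled here. No treatment or engineered allele is named for any group. All rats were decapitated under isoflurane before both structures were taken and frozen. Arrays are named here by the 8 letter codes of their titles, which recur in both regions: Y, Z, AA, AB (young rats), AF, AG, AH, AI (old rats). Nothing in the labels says that a code stands for an animal, so the arrays were treated as unpaired. Each p-value below sets a difference against the spread between arrays within the groups, and the number of arrays sets its precision. If a code does mark an animal, the comparisons that involve both regions leave out that pairing.

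Hsp70 proteins hold unfolded segments of other proteins and release them in a cycle driven by ATP. DnaJ proteins, also called Hsp40, bring the client to Hsp70 and speed up its ATP hydrolysis, and Hsp110 proteins and Hspbp1 exchange the nucleotide so that the client leaves. Hsp90 finishes the folding of kinases and steroid receptors, the mitochondrial chaperonin made by Hspd1 and Hspe1 encloses single proteins, and small heat shock proteins keep damaged proteins from clumping. In neurons, which do not divide, this machinery also works at the synapse: Hspa8, the constitutive Hsp70, and its partners Dnajc5 and Dnajc6 serve vesicle release and the uncoating of clathrin vesicles.

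The deposited values are log2 signals. Each array was shifted so that 0 is its 75th percentile over gene probes, which averaged 9.43 on the deposited scale, and all levels below are on that log2 scale from 1 probe per gene, the one with the highest mean over the 16 arrays. Levels of different genes are not compared. Differences are log2 differences of group means with the standard error (SE) of limma's fit over all genes, and a gene is called where limma's p adjusted by the Benjamini-Hochberg method over the 10054 genes is under 0.05.

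The arrays of a group resembled each other closely, with median correlations of 0.983 to 0.989. The regions carried their own neuronal markers: 6 tested markers of hippocampal principal neurons averaged 0.38 to 0.81 about their own means on the hippocampal arrays and -0.615 to -0.45 on the cortical ones. Other tissue was present in uneven amounts. The 9 tested markers of choroid plexus epithelium, a tissue that borders the hippocampus, stood at 2.48 to 3.56 on the hippocampal arrays young Y, young AB, old AH and old AI, at -0.83 to 0.32 on the other 4, and at -1.42 to -0.95 on the cortical arrays. The 13 tested markers of mural cells and meninges stood at 1.27 and 0.98 on young frontal cortex Z and Y and at 1.19 on young hippocampus Y. The 8 tested striatal neuron markers stood at 2.06 on old frontal cortex AG and at -0.25 to 1.37 on the other 7 cortical arrays. In bulk tissue, fewer cells of a type and less RNA per cell cannot be told apart.

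Heat shock factor binds repeats of GAA and its reverse complement TTC, and such repeats in promoters mark the classical heat shock genes. RefSeq promoters of the GRCr8 build, 250 bases before to 50 after the gene start, were at hand for 54 of the 72 genes. Hspa1b, Hsp90aa1, Dnaja2, Dnajc2 and Dnajc15 were among the 18 without one, so no motif could be looked for in them. Either of the 8-letter motifs GAANNTTC and TTCNNGAA, each of which reads the same on both strands, was present in 16 of the 54 (29.6%), against 15.9% of all 33469 promoters. Longer motifs of 13 letters, GAANNTTC followed by NNGAA and TTCNNGAA followed by NNTTC, are reverse complements of each other, contain both shorter ones, and were looked for after the shorter ones had been counted. They were present in 5 of the 54 (9.26%), against 0.798% of all promoters. These 5 promoters are shown, because 4 of the genes take part in the results below and the fifth, Hspd1, is the partner of Hspe1. Capitals mark the matches to any of the 4 motifs.
Dnaja1 (chr5:60638154-60638453, plus strand): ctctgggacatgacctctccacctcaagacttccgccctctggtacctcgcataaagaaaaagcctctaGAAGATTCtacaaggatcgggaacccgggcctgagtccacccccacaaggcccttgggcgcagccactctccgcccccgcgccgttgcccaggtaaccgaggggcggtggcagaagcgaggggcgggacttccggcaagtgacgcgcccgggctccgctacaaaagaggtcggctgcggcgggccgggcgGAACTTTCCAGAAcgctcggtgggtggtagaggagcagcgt
Hspa8 (chr8:50080264-50080563, plus strand): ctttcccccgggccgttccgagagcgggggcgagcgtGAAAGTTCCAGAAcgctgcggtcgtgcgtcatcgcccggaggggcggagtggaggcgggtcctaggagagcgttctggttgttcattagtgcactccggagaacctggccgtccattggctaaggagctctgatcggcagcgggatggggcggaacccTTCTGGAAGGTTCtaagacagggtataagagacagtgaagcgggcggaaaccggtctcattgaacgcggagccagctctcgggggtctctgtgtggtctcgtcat
Hspe1 (chr9:64084077-64084376, plus strand): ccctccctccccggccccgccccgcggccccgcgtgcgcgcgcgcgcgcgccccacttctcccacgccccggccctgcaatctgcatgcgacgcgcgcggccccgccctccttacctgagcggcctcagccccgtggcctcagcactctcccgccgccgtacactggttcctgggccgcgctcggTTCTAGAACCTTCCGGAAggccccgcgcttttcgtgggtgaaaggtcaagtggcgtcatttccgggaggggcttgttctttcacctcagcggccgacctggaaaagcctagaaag
Hspd1 (chr9:64083988-64084287, minus strand): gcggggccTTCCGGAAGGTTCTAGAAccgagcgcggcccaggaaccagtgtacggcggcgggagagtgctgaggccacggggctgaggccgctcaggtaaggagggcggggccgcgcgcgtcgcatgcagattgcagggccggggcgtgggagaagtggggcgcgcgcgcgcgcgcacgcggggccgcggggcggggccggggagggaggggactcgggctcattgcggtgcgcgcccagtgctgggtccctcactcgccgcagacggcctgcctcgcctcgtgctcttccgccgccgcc
Hsph1 (chr12:10427118-10427417, plus strand): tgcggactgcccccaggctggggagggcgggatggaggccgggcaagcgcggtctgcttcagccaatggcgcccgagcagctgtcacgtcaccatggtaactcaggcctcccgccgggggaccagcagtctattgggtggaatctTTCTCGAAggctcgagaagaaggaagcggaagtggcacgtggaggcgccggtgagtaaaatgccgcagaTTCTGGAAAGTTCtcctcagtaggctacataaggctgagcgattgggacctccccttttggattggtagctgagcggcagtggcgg
Hspd1 and Hspe1 are transcribed away from each other and their windows overlap, so the run in capitals is the same stretch of DNA read from both strands, 65 bases before the start of Hspe1 and 242 before that of Hspd1. In Hspa8 the matches to the longer motifs begin 213 and 55 bases before the start, in Hsph1 36 bases before it, and in Dnaja1 9 bases after it. A match is a description of the letters and was not tested as a binding site.

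The clearest differences among the chaperone genes lay between the regions, and those of Hspa1b and Dnajb13 were nearly the same at both ages. The stress-inducible Hsp70 gene Hspa1b and Dnajb13, a DnaJ gene of the radial spokes of motile cilia, were about 2-fold higher in hippocampus than in frontal cortex, while Dnajc2 and Dnajc21, whose products act on ribosomes, were lower there. In young rats 7 of 62 genes were called (11.3%), beside 13.8% of all genes; 5 were higher in hippocampus, beside 6.42% of all genes, and 2 lower, beside 7.42%. In old rats 12 of 62 were called (19.4%), beside 18.7% of all genes; 9 were higher, beside 9.67%, and 3 lower, beside 9.03%. Both total shares lie near those of all genes. The regions did not overlap for 13 of the 62 in young rats, 21% beside 24.2% of all genes, and for 11 in old rats, 17.7% beside 17.3%. All 7 genes called in young rats were among the 12 called in old rats and had the same sign; of the 1391 and 1880 genes called in all, 1137 were shared, 81.7% of the young list and 60.5% of the old one.

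Hspa1b stood at -1.74, -1.50, -1.57 and -1.61 on young hippocampus Y, AB, AA and Z, and at -2.89, -2.93, -2.82 and -2.56 on young frontal cortex Z, Y, AA and AB. In old rats it stood at -1.44, -1.83, -2.19 and -1.85 on hippocampus AG, AF, AI and AH, and at -2.76, -2.83, -2.96 and -3.40 on frontal cortex AH, AF, AG and AI. Every hippocampal array lay above every cortical one, with old hippocampus AI nearest to cortex. The difference was 1.20 (SE 0.152, limma adjusted p = 3.3e-05) in young rats and 1.16 (SE 0.152, limma adjusted p = 4.2e-05) in old rats, 2.29-fold and 2.23-fold. Of its 12 probes, the 10 that passed the intensity minimum gave 1.06 to 1.24 in young and 0.94 to 1.28 in old rats. Whether these 10 differ in sequence or are repeat spots of the same probe was not analysed here. The other 2 lay below the minimum and gave -0.08 and 0.06 in young and -0.145 and -0.01 in old rats. The near-identical gene Hspa1a is not in the probe annotation used here, and RNA of both copies may bind these probes, so the gene assignment is uncertain.

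Dnajb13 stood at -1.35, -1.44, -1.11 and -1.23 on young hippocampus Y, AB, AA and Z, and at -2.24, -2.03, -2.30 and -2.37 on young frontal cortex Z, Y, AA and AB. On old hippocampus AG, AF, AI and AH it stood at -1.28, -1.81, -1.45 and -1.07, and on old frontal cortex AH, AF, AG and AI at -2.35, -2.35, -2.38 and -2.42. The regions did not overlap, and in old rats the cortical values lay close together while the hippocampal ones spread. The difference was 0.95 (SE 0.127, limma adjusted p = 5.7e-05) in young and 0.97 (SE 0.127, limma adjusted p = 4.2e-05) in old rats, and the second probe gave 1.03 and 0.91. The choroid plexus markers, too, were higher on every hippocampal array than on any cortical one. Without the 4 hippocampal arrays richest in choroid plexus markers, the difference was 1.065 in young and 0.83 in old rats for Dnajb13, and 1.21 and 1.35 for Hspa1b, called in each case (limma adjusted p of 0.000212, 0.00166, 0.000505 and 0.000271). The hippocampal arrays left in still had more choroid plexus signal than any cortical one, at -0.83 to 0.32 against -1.42 to -0.95. The part of that signal in these differences was not tested.

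**Figure D1:**
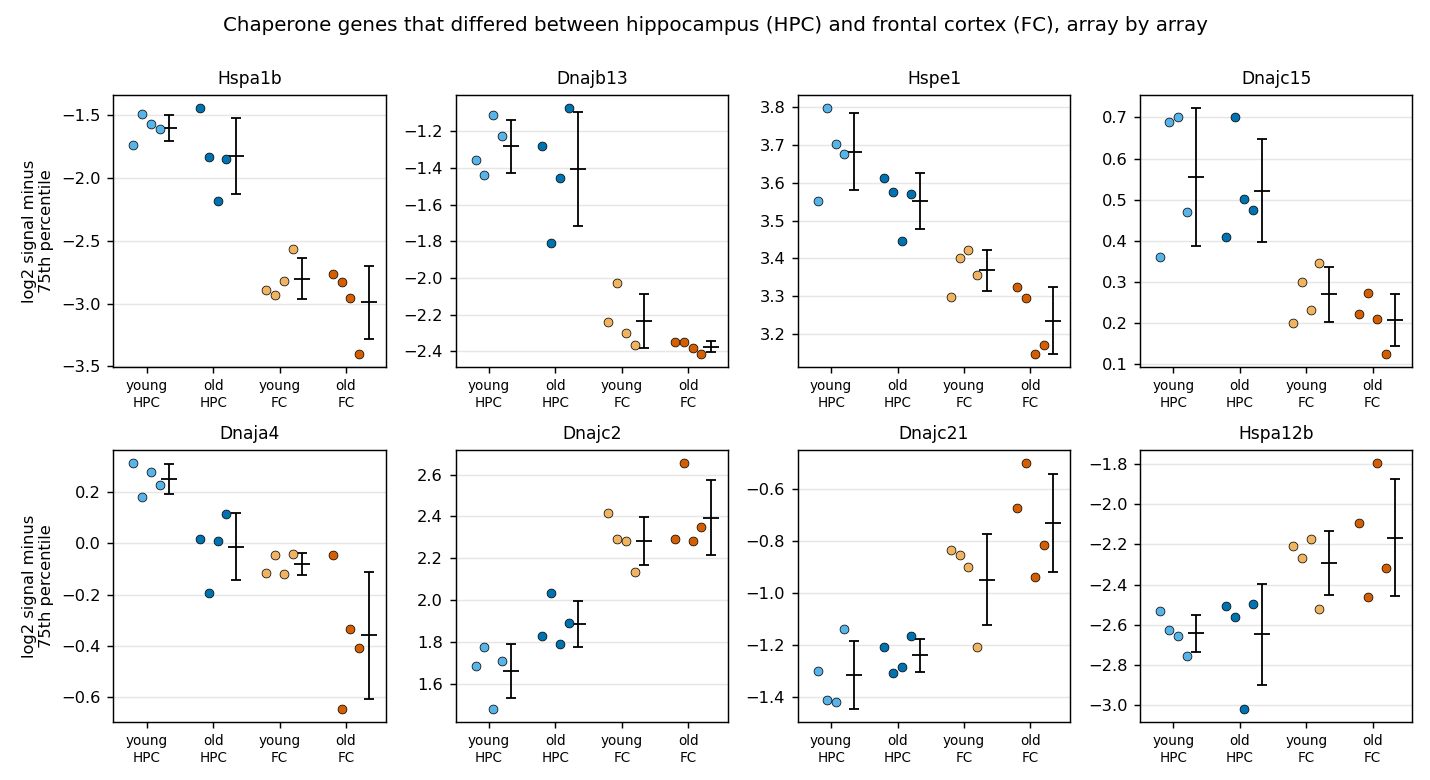
Levels of 8 genes called between the regions in at least 1 age group, on a log2 scale where 0 is the 75th percentile of each array; points are the 4 arrays of a group, and the bar beside them is mean and SD. Hspa1b and Dnajb13 lie higher on every hippocampal (HPC) array than on any frontal cortex (FC) array, and Dnajc2 lies lower on every one.

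Hspe1, the small lid subunit of the mitochondrial chaperonin, was modestly higher in hippocampus. It stood at 3.55, 3.80, 3.70 and 3.68 on young hippocampus Y, AB, AA and Z and at 3.30 to 3.42 on the young cortical arrays, and at 3.44 to 3.61 against 3.15 to 3.32 in old rats. The groups did not overlap at either age, and the differences were 0.31 (SE 0.075, limma adjusted p = 0.0083) and 0.32 (SE 0.075, limma adjusted p = 0.0074). All 4 probes of Hspe1 were higher in hippocampus, by 0.23 to 0.35 in young and 0.28 to 0.34 in old rats. Hspd1, the large subunit, which shares its promoter region, gave 0.12 (SE 0.111, limma adjusted p = 0.56) and 0.22 (SE 0.111, limma adjusted p = 0.18) and was not called, and the difference between the pair was not tested.

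Dnajc15, a mitochondrial inner membrane DnaJ protein linked to protein import, stood at 0.36 to 0.70 on the young and 0.41 to 0.70 on the old hippocampal arrays. On the cortical arrays it stood at 0.20 to 0.35 in young and 0.12 to 0.27 in old rats. Its values did not overlap between the regions, and the differences were 0.29 (SE 0.090, limma adjusted p = 0.043) and 0.31 (SE 0.090, limma adjusted p = 0.022). Dnaja4, a cytosolic class A DnaJ gene, was higher by 0.33 (SE 0.105, limma adjusted p = 0.045) in young rats, where the regions did not overlap, and by 0.35 (SE 0.105, limma adjusted p = 0.030) in old rats, where they did. The calls of Dnajc15 and Dnaja4 in young rats were kept in 17 and 15 of 29 alternative analyses, and those in old rats in 23 and 19.

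A pair of genes of the ribosome went the other way. Dnajc2, known as the ribosome-associated partner of Hspa14, stood at 1.68, 1.77, 1.48 and 1.71 on young hippocampus Y, AB, AA and Z, and at 2.42, 2.29, 2.28 and 2.13 on young frontal cortex Z, Y, AA and AB. In old rats it stood at 1.79 to 2.04 against 2.28 to 2.66. It was lower on every hippocampal array of each age, with differences of -0.62 (SE 0.100, limma adjusted p = 0.00034) in young and -0.51 (SE 0.100, limma adjusted p = 0.0018) in old rats, and both of its probes showed this. Dnajc21, which takes part in maturation of the large ribosomal subunit, stood at -1.42 to -1.14 in young hippocampus and -1.21 to -0.83 in young cortex, and at -1.31 to -1.17 against -0.94 to -0.50 in old rats. The young groups overlapped and the old ones did not, and the differences were -0.37 (SE 0.107, limma adjusted p = 0.028) and -0.51 (SE 0.107, limma adjusted p = 0.0029). All 10 spots of Dnajc21 had the same sign at both ages, and whether they are different probes was not analysed. The call of Dnajc21 in young rats was kept in 21 of 29 alternatives, and its call in old rats and both calls of Dnajc2 in all 29.

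In old rats 5 more genes were called. Dnaja1, the abundant cytosolic class A partner of Hspa8, was higher in hippocampus by 0.35 (SE 0.078, limma adjusted p = 0.0052) without overlap. Hspa13, an Hsp70 relative of the microsomes, was higher by 0.40 (SE 0.102, limma adjusted p = 0.012), and Hsph1, the Hsp110 nucleotide exchanger, by 0.36 (SE 0.120, limma adjusted p = 0.048). Dnajc3, the endoplasmic reticulum protein also called P58IPK, was higher by 0.31 (SE 0.097, limma adjusted p = 0.033). The call held in 26 of 29 alternatives for Dnaja1, 27 for Hspa13, 21 for Dnajc3 and 11 for Hsph1. For Dnaja1, 1 of the fits that lost the call left out old frontal cortex AF and AG, with a difference of 0.27. Dnaja1, Hspa13, Hsph1 and Dnajc3 gave 0.17, 0.11, 0.25 and 0.14 in young rats and were not called there. The differences between young and old in this respect are the differences of the age effects given below, of which none was called by limma.

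The fifth gene, Hspa12b, an Hsp70 relative of endothelial cells, was lower in old hippocampus, with a difference of -0.48 (SE 0.142, limma adjusted p = 0.027), at -3.02 to -2.50 against -2.46 to -1.79. Old hippocampus AI stood apart at -3.02, beside -2.56 to -2.50 on the other old hippocampal arrays. The endothelial markers were lower in hippocampus too, and whether they followed Hspa12b array by array was not tested. On old frontal cortex AF and AG, the lowest and highest of their group for Hspa12b (-2.46 and -1.79), the markers averaged 0.286 and 0.287. Young hippocampus Y was the highest of its group for both, at -2.53 for Hspa12b and 0.057 for the markers. All 8 tested endothelial markers were lower in hippocampus in old and in young rats, their mean about their own levels ranging from -0.31 to 0.025 in old hippocampus and from 0.075 to 0.29 in old cortex, and their part in the result was not tested. The call of Hspa12b held in 21 of 28 alternatives. Of its 4 probes, 1 had the other sign in old rats (0.04). In young rats Hspa12b differed by -0.35 (SE 0.142, limma adjusted p = 0.13).

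**Figure D2:**
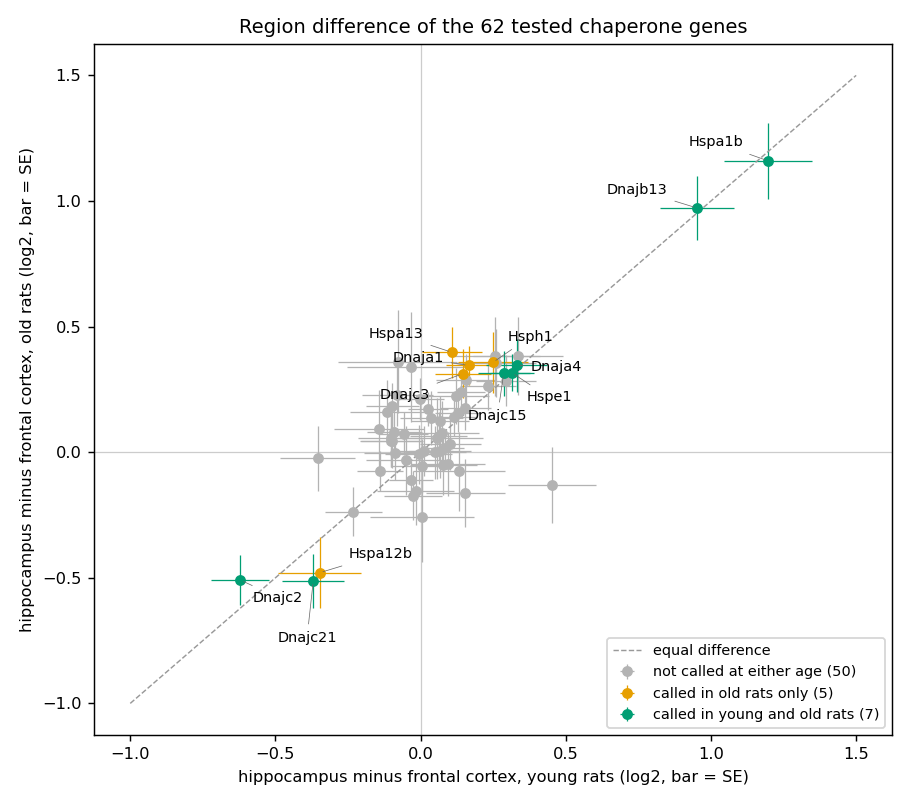
Region difference (hippocampus minus frontal cortex, log2) of the 62 tested genes in young rats on the horizontal and in old rats on the vertical axis, with standard errors; the dashed line marks equal differences, and colours mark the genes called. Hspa1b (1.20 and 1.16) and Dnajb13 (0.95 and 0.97) stand apart at the upper right, and Dnajc2 (-0.62 and -0.51) and Dnajc21 (-0.37 and -0.51) at the lower left.

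Of the main housekeeping chaperones, none of those that follow was called between the regions. The 3 Hsp90 genes, Hsp90aa1, Hsp90ab1 and the endoplasmic Hsp90b1, gave 0.07, 0.15 and 0.10 in young and 0.13, 0.18 and 0.03 in old rats, with SE of 0.088 to 0.105 and none called. Hspa8 gave 0.07 and 0.00 (SE 0.106), with a 95% interval of -0.22 to 0.23 in old rats, from its brightest probe. In old rats its other 4 probes gave 0.10, 0.43, 0.34 and 0.37, and the mean of the 5 gave 0.248 (limma adjusted p = 0.161); in young rats the 5 ran from -0.02 to 0.07. Hspa9, the mitochondrial Hsp70, gave 0.13 and 0.16 (SE 0.077). Hspa5, the Hsp70 of the endoplasmic reticulum, gave 0.16 and 0.29 (SE 0.102), the latter with limma adjusted p = 0.061. Hspa4, an Hsp110 protein, gave 0.29 and 0.28 (SE 0.102), with limma adjusted p = 0.069 and 0.064, close in size to the called differences of Dnajc15. Hspa4 was called in 3 of 29 alternatives at each age, and Hspa5 in 5 in old rats. Dnajb1, the inducible Hsp40, gave -0.14 and -0.08 (SE 0.079), and the vesicle proteins Dnajc5 and Dnajc6 gave 0.09 and -0.01 in young and -0.05 and -0.01 in old rats (SE 0.129 and 0.116). Of the small heat shock proteins, Hspb8 gave -0.35 (SE 0.130, limma adjusted p = 0.086) in young and -0.02 in old rats, and Hspb6 gave 0.01 in both (SE 0.100).

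Few genes of any kind, chaperone genes among them, were called for age, and a gene that was not called may still differ. In hippocampus none of the 62 was called by limma, beside 0.0398% of all genes (4 genes), and 5 of the 62 had an unadjusted p under 0.05, 8.06% beside 6.75% of all genes. The median difference over the 62 was -0.02, beside 0.01 over all genes, and 37 of the 62 were negative, 59.7% beside 47.1%. Old and young arrays did not overlap for 6 of the 62 (9.68%), beside 4.56% of all genes. In frontal cortex 1 gene, Dnaja1, was called and fell with age, beside 0.915% of all genes called in either direction and 0.368% called as lower. Here 12 of the 62 had an unadjusted p under 0.05, 19.4% beside 22.2%, and 42 were negative, 67.7% beside 49.8%, with a median of -0.08 beside 0.00 over all genes. Old and young arrays did not overlap for 5 (8.06%), beside 12.8% of all genes. Marker lists moved in the same cortical comparison. All 9 tested oligodendrocyte markers were positive (median 0.66), with a mean about their own levels of -0.75 to -0.06 on young and -0.12 to 0.60 on old arrays. Of 13 mural and meningeal markers, 12 were negative (median -0.83), at -0.12 to 1.27 on young and -0.77 to 0.15 on old arrays. All 9 tested immediate-early genes, which respond to activity and handling, were negative (median -0.54, 1 called), at 0.36 to 0.88 on young and -0.29 to 0.53 on old arrays. Also in cortex, 9 of 10 microglial (median 0.22), all 5 erythrocyte (0.22) and 6 of 8 striatal neuron markers (0.40) were positive, with none called. In the hippocampal age comparison all 10 microglial markers were positive (median 0.50), as were all 5 tested erythrocyte markers (0.51). There 12 of 13 mural and meningeal markers (-0.27) and 8 of 9 immediate-early genes (-0.17) were negative, and none of these was called. The part of these lists in the chaperone values of either region was not tested.

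Dnaja1 stood at 2.78, 2.77, 2.71 and 2.69 on young frontal cortex Z, Y, AA and AB, and at 2.58, 2.40, 2.23 and 2.37 on old frontal cortex AH, AF, AG and AI. All old arrays lay below all young ones. The difference was -0.34 (SE 0.078, limma adjusted p = 0.049997), 1.27-fold lower, and the second probe gave -0.28 (-0.275 before rounding). The adjusted p is at the edge of the threshold, and the call held in 4 of the 16 fits that each left out 1 array and in 7 of 29 alternatives in all, with adjusted p from 0.022 to 0.522 and the difference from -0.40 to -0.26. In hippocampus Dnaja1 stood at 2.85 to 2.95 on the young and 2.63 to 2.83 on the old arrays, again without overlap, and differed by -0.16 (SE 0.078, limma adjusted p = 0.73).

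The brightest probe of each class A gene gave a negative difference in old cortex: Dnaja4 by -0.28 (SE 0.105, limma adjusted p = 0.15), Dnaja2 by -0.18 (SE 0.091, limma adjusted p = 0.25), and Dnaja3, the mitochondrial member, by -0.12 (SE 0.099, limma adjusted p = 0.51). None of these 3 was called, and 2 of the 3 probes of Dnaja3 had the other sign, up to 0.13. Dnaja4 stood at -0.12 to -0.04 on the young cortical arrays and at -0.04, -0.65, -0.33 and -0.41 on old AH, AF, AG and AI, so that AH lay within the young range. In hippocampus Dnaja4 stood at 0.18 to 0.32 on the young and -0.20 to 0.12 on the old arrays without overlap, and differed by -0.26 (SE 0.105, limma adjusted p = 0.68).

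Hspbp1, the nucleotide exchange factor, gave a negative difference in each region. In hippocampus it stood at -0.01, 0.09, 0.04 and 0.05 on young Y, AB, AA and Z and at -0.19, -0.28, -0.14 and -0.29 on old AG, AF, AI and AH. In frontal cortex it stood at 0.19, 0.08, 0.14 and 0.12 on young Z, Y, AA and AB and at -0.05, -0.44, -0.48 and 0.08 on old AH, AF, AG and AI. The hippocampal groups did not overlap, while in cortex old AI reached the young values, AH lay a little below them, and AF and AG lay far below. The differences were -0.27 (SE 0.107, limma adjusted p = 0.68) and -0.35 (SE 0.107, limma adjusted p = 0.090), neither called, and the second probe gave -0.26 and -0.35 (-0.255 and -0.345 before rounding).

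Of the 9 tested Hsp70 genes, 6 were negative in hippocampus and 7 in frontal cortex, and none was called. Hspa2, an Hsp70 best known from the testis and also made in brain, had the smallest p of all chaperone genes in hippocampus. It stood at -0.98, -1.15, -1.01 and -1.10 on young Y, AB, AA and Z and at -0.79, -0.21, -0.77 and -0.66 on old AG, AF, AI and AH. Every old array lay above every young one, by 0.45 on average (SE 0.157, limma adjusted p = 0.64), 1.37-fold. In frontal cortex it gave 0.32 (SE 0.157, limma adjusted p = 0.24) with overlap. Hspa13 gave -0.30 (SE 0.102, limma adjusted p = 0.12) in frontal cortex and -0.01 in hippocampus. Hspa1b gave -0.23 and -0.19 (SE 0.152), Hspa5 0.03 and -0.10 (SE 0.102), and Hspa9 -0.06 and -0.09 (SE 0.077) in hippocampus and frontal cortex, and none of them was called.

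**Figure D3:**
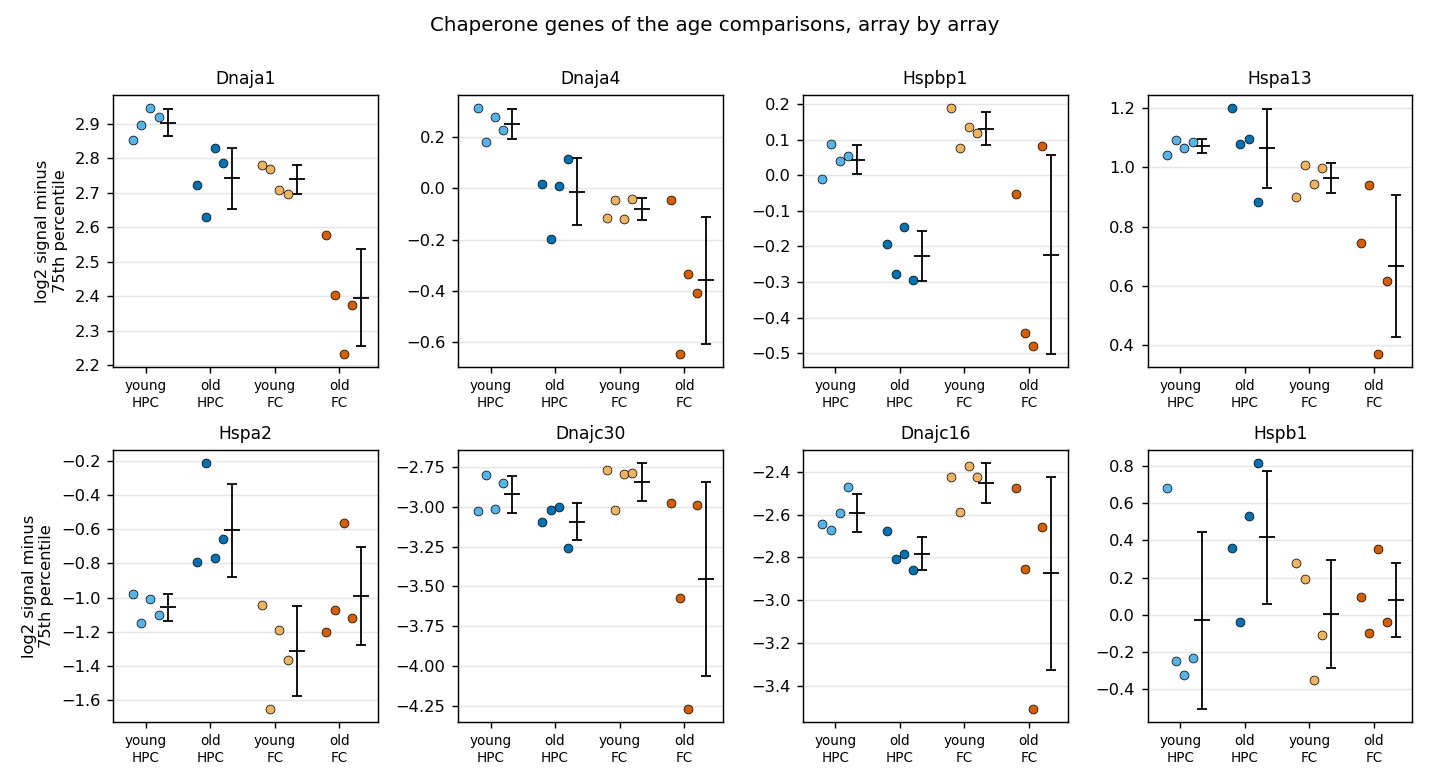
Levels of 8 genes in the age comparisons, on a log2 scale in which 0 is the 75th percentile of each array; points are the 4 arrays of a group, and the bar beside them is mean and SD. Dnaja1 lies lower on all 4 old than on all 4 young arrays in each region. In Dnajc30 and Dnajc16 old cortical array AG lies far below the rest, and old AF is the next lowest cortical array.

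Among the class C genes, old cortical arrays AF and AG set 2 of the larger differences. Dnajc30, a mitochondrial DnaJ protein, stood at -3.02 to -2.77 on the young cortical arrays and at -2.98, -3.57, -4.27 and -2.99 on old AH, AF, AG and AI, and differed by -0.61 (SE 0.205, limma adjusted p = 0.11). Dnajc30 was dim: its brightest probe averaged 6.35 on the deposited scale, and only its highest group mean put it over the minimum of 6.49. Dnajc16 stood at -2.59 to -2.37 on young and at -2.48, -2.85, -3.51 and -2.66 on old frontal cortex in the same order of arrays, and differed by -0.42 (SE 0.156, limma adjusted p = 0.14). In both genes AG was the lowest, followed by AF. Dnajc2 gave 0.22 (SE 0.100, limma adjusted p = 0.70) in hippocampus without overlap. Without AF and AG the cortical difference was -0.14 for Dnajc30, -0.12 for Dnajc16 and -0.115 for Hspbp1, against -0.26 for Dnaja1 and -0.28 for Hspa13. For Dnaja4 it went from -0.28 to -0.15, and for Hspa2 from 0.32 to 0.155.

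The small heat shock proteins were the one family with 4 of 4 tested genes positive in hippocampus. Hspb1, the Hsp27 of glia and vessel walls, carried most of that. It stood at 0.68, -0.25, -0.33 and -0.23 on young Y, AB, AA and Z and at 0.36, -0.04, 0.53 and 0.82 on old AG, AF, AI and AH, and differed by 0.45 (SE 0.219, limma adjusted p = 0.73). Young Y stood apart from the other young arrays, and it was also the hippocampal array with the most mural and meningeal marker signal (1.19, beside -0.96 to 0.16 on the other young ones); the part of that signal in the level of Hspb1 was not tested. Without young Y the difference was 0.685, and it was not called in any alternative. The other 3 gave 0.20 (Hspb8, SE 0.130), 0.01 (Hspb6, SE 0.100) and 0.01 (Hspb2, SE 0.125). In frontal cortex the 4 gave 0.07 (Hspb1), -0.13 (Hspb8), 0.01 (Hspb6) and 0.00 (Hspb2), and Hspb1 gave 0.307 without the 2 young arrays richest in mural signal.

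The Hsp90, Hsp110 and chaperonin genes were negative throughout frontal cortex, 8 of 8, each by a small amount and none called. This sign did not hold in every alternative. Hspd1 gave 0.039 without old arrays AF and AG, and Hsp90b1 gave 0.021 in 1 of 29 alternatives. Hsp90ab1, Hsp90aa1 and Hsp90b1 gave -0.10, -0.07 and -0.04 (SE 0.088 to 0.105). Hspd1 gave -0.12 (SE 0.111) and Hspe1 -0.13 (SE 0.075), while Hsph1, Hspa4l and Hspa4 gave -0.08, -0.07 and -0.04 (SE 0.102 to 0.120). In hippocampus 7 of the 8 were negative, from -0.13 (Hspa4l and Hspe1) to -0.01 (Hsp90aa1), and Hsph1 gave 0.02. The 95% interval of Hsp90aa1 ran from -0.22 to 0.20 in hippocampus and from -0.28 to 0.14 in frontal cortex.

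Among the class B and C genes, 7 of 10 and 11 of 22 were negative in frontal cortex, and 5 of 10 and 13 of 22 in hippocampus. Dnajb5 gave -0.31 (SE 0.127, limma adjusted p = 0.17) and Dnajb1 -0.15 (SE 0.079, limma adjusted p = 0.28) in frontal cortex, and -0.03 and -0.09 in hippocampus. Dnajc5 and Dnajc6 of the synaptic vesicle cycle gave -0.19 and 0.00 in hippocampus and -0.05 and 0.00 in frontal cortex (SE 0.129 and 0.116). Dnajc3 gave 0.11 and -0.06 (SE 0.097).

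**Figure D4:**
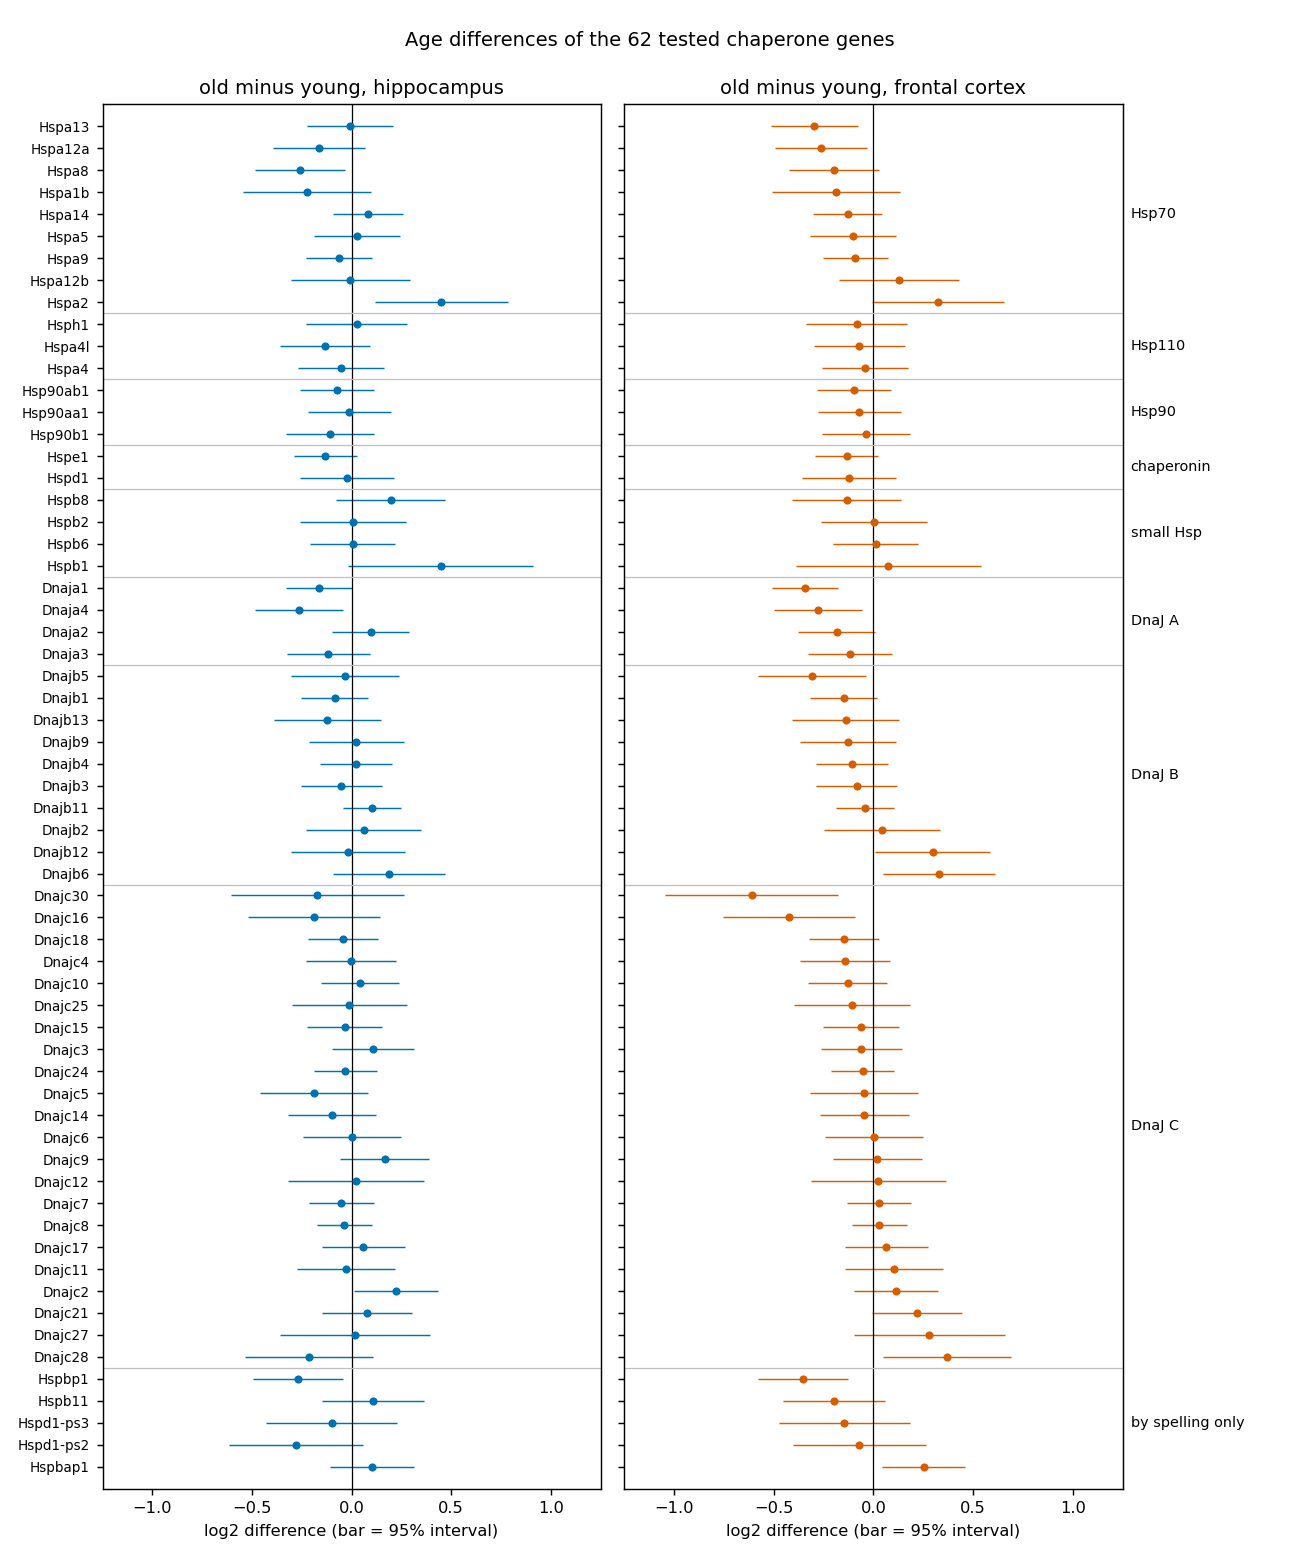
Age differences (old minus young, log2) with 95% intervals of all 62 tested genes, grouped by family and ordered within a family by the frontal cortex value, in hippocampus on the left and in frontal cortex on the right. Most intervals cross 0 in both panels; Dnaja1 in frontal cortex (-0.34) was the only one called.

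Hspa8 was measured by 5 probes that disagreed in size, which was seen after the values were known. The 2 brightest gave -0.20 and -0.18 in frontal cortex and -0.26 and -0.12 in hippocampus. The other 3 gave -0.85, -0.84 and -0.80 in frontal cortex and -0.48, -0.48 and -0.41 in hippocampus. The brightest probe stood at 6.54, 6.51, 6.57 and 6.63 on young frontal cortex Z, Y, AA and AB and at 6.34, 6.38, 6.33 and 6.41 on old AH, AF, AG and AI, and the third at 3.02, 2.64, 2.96 and 2.95 and at 2.48, 1.55, 1.64 and 2.50. Both put all old cortical arrays below all young ones, but on the third probe AF and AG stood well below AH and AI. Fitted one by one and adjusted over 28736 probes, the 3 probes had limma adjusted p of 0.062, 0.059 and 0.059 in frontal cortex, and the 2 brightest 0.30 and 0.23. Averaged over its 5 probes, Hspa8 differed by -0.57 (-0.575 before rounding) in frontal cortex and was called (limma adjusted p = 0.034), and Dnaja1 was then not called (limma adjusted p = 0.057).

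**Figure D5:**
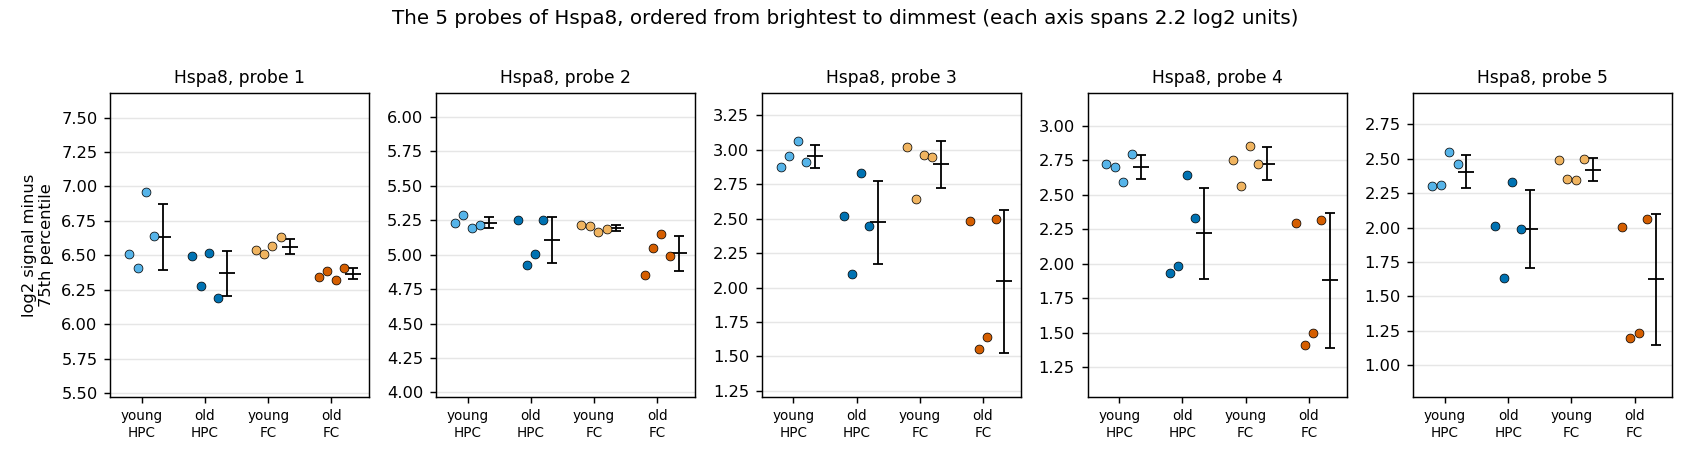
The 5 probes of Hspa8, the constitutive Hsp70, by group, on a log2 scale where 0 is the 75th percentile of each array; each panel spans the same 2.2 log2 units, points are the 4 arrays and the bar is mean and SD. Probes 3 to 5 drop in old frontal cortex by 0.80 to 0.85 while probes 1 and 2 drop by 0.18 to 0.20, and arrays AF and AG are the 2 lowest cortical points of probes 3 to 5.

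A like pattern was looked for over all genes. In 988 genes whose brightest and dimmest probes over the intensity minimum lay more than 1 log2 unit apart, the gap between them, taken about each gene's own mean, averaged 0.106 on old frontal cortex AF and 0.075 on AG, and -0.128 to 0.072 on the other 14 arrays, with old hippocampus AH next at 0.072. The gap of Hspa8 was 0.82 and 0.72 on AF and AG and -0.32 to 0.27 on the others. The labelling primed from the poly(A) tail, per the labels' protocols, and where each probe lies in its transcript was not analysed here. The part of this gap in the age differences was not tested. Without AF and AG no chaperone gene was called for age in frontal cortex, where 3 genes in all were called, 42 of 62 negative became 39 of 62, and the median was -0.06.

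The age effects of the regions could not be separated. For the difference between them (hippocampus minus frontal cortex), limma called none of the 62 genes and none of all genes (0%), and 2 of the 62 had an unadjusted p under 0.05, 3.23% beside 2.66% of all genes. They were Dnajc28, at -0.58 (SE 0.214, limma adjusted p = 0.999), which gave -0.21 in hippocampus and 0.37 in frontal cortex, and Dnaja2, at 0.28 (SE 0.129, limma adjusted p = 0.999), with 0.10 and -0.18. Dnajc28 was dim: its brightest probe averaged 6.496 on the deposited scale, close to the minimum of 6.486. Hspa13 gave 0.29 (SE 0.145), Hspa14 0.21 (SE 0.117), Hspb8 0.33 (SE 0.183) and Hspb11 0.31 (SE 0.171). For Dnaja1 the difference was 0.18 (SE 0.110, 95% interval -0.05 to 0.41).

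The wider folding machinery was described from 4 lists of other genes, chosen by name. Their counts of calls stand beside the shares of all genes given above: 0.0398% for age in hippocampus, 0.915% for age in frontal cortex, 13.8% between regions in young rats (6.42% higher, 7.42% lower) and 18.7% in old rats (9.67% higher, 9.03% lower). Of 35 tested heat shock factors, co-chaperones and alpha crystallins, none was called for age in hippocampus (median 0.01) and 1 in frontal cortex (median -0.04). That gene, Ttc4, a co-chaperone of Hsp70 and Hsp90, gave 1.01 (SE 0.196, limma adjusted p = 0.026), but of its 2 probes the other gave -0.38. The phosphatase Ppp5c, which binds Hsp90, gave -0.58 (SE 0.136, limma adjusted p = 0.056) in frontal cortex, and in hippocampus the Hsp70 co-chaperone Bag3 gave 0.39 (SE 0.144, limma adjusted p = 0.67) and Cdc37l1 0.23 (SE 0.097, limma adjusted p = 0.70). Between the regions 1 gene was higher and 1 lower in young hippocampus, Hsf2 at 0.38 and Sgtb at -0.69 (limma adjusted p = 0.014 and 0.0010). In old rats Bag2 was higher by 0.38 (limma adjusted p = 0.0086), and Ttc4, Hsf4 and Sgtb were lower at -0.99, -0.50 and -0.50 (limma adjusted p = 0.0020, 0.014 and 0.011), with the other probe of Ttc4 at 0.04. The list's medians were 0.00 and 0.06.

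Of 12 tested genes of the cytosolic chaperonin TRiC and of prefoldin, none was called for age, with medians of 0.00 in hippocampus and -0.11 in frontal cortex. The chaperonin subunits Cct4 and Cct5 gave -0.47 (SE 0.115, limma adjusted p = 0.062) and -0.27 (SE 0.100, limma adjusted p = 0.14) in frontal cortex, and Pfdn6 and Pfdn5 gave 0.20 and 0.18 in hippocampus (limma adjusted p = 0.73 and 0.76). Between the regions Pfdn2 was lower in young hippocampus at -0.36 (limma adjusted p = 0.046, with 1 of 3 probes at 0.02), and Cct5 was higher in old hippocampus by 0.42 (limma adjusted p = 0.0079). The medians were 0.01 and 0.02.

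Of 26 tested genes of folding and the unfolded protein response in the endoplasmic reticulum, none was called for age, with medians of 0.01 and -0.01. Pdia3, a disulfide isomerase, gave -0.46 (SE 0.114, limma adjusted p = 0.064) and Creld2 -0.40 (SE 0.153, limma adjusted p = 0.15) in frontal cortex, and the translocon genes Sec62 and Sec63 gave 0.22 and 0.16 in hippocampus (limma adjusted p = 0.73 and 0.78). In young rats 2 were higher in hippocampus, Derl1 at 0.34 and Ddit3 at 0.31 (limma adjusted p = 0.019 and 0.049), and 2 lower, Ero1a at -0.45 and Atf4 at -0.28 (limma adjusted p = 0.024 and 0.044). In old rats 5 were higher and 2 lower, led by Pdia3 at 0.56, Derl1 at 0.42 and Ppib at 0.39 (limma adjusted p = 0.0023, 0.0041 and 0.0049), with Atf4 at -0.33 (limma adjusted p = 0.015). The medians were 0.09 in young and 0.15 in old rats.

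Of 15 tested genes of mitochondrial protein quality control, none was called for age, with medians of 0.06 and -0.03. Grpel1, the nucleotide exchanger of the mitochondrial Hsp70, gave -0.32 (SE 0.083, limma adjusted p = 0.066) and the protease subunit Clpp -0.20 (SE 0.075, limma adjusted p = 0.14) in frontal cortex, and Clpx and Afg3l1 gave 0.25 and 0.16 in hippocampus (limma adjusted p = 0.67 and 0.80). Clpp was higher in old hippocampus by 0.41 (limma adjusted p = 0.0010) and the list's medians between the regions were -0.03 in young and 0.10 in old rats. For the difference of the age effects no gene of the 4 lists was called, and the list medians ran from 0.01 to 0.10, beside 0.02 over all genes.

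The remaining 10 chaperone genes did not reach the intensity minimum of 6.49 on the deposited scale in any group and were not tested: Hspa1l, Hspb3, Hspb7, Hspb9, Dnajb7, Dnajb8, Dnajc5b, Dnajc5g, Dnajc22 and Hspd1-ps21. The negative control spots averaged 4.99. Hspb3, a small heat shock protein of muscle, was dim but uneven. It stood at -4.19 to -4.04 in young and -4.29 to -4.09 in old hippocampus, at -3.71 to -3.35 in young frontal cortex, and at -3.74, -1.92, -4.11 and -3.41 on old frontal cortex AH, AF, AG and AI, so that 1 array rose far above the rest.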

How the data were processed

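Expression was measured on 16 one-colour Agilent arrays, 4 for each of 4 groups. The authors deposited log2 values made with Agilent Feature Extraction, per the submitters' processing notes; background correction and normalization: not given in the sources used here. In addition, 16 raw signal columns could not be tied to samples and were not used. Each array was shifted to its 75th percentile over 45904 gene probes. The probe with the highest mean stood for each gene, symbols were updated through RefSeq, and genes whose highest group mean passed the 40th percentile of probe means (6.49 log2) were kept. All 10054 genes were fitted with limma 3.58.1 in R 4.3.3 as 4 group means, with Benjamini-Hochberg adjustment, giving 12 residual degrees of freedom, 4.07 prior ones and a median residual SD of 0.165 log2. The fit was tested on simulated data. Named are the members called for age, the 6 of smallest p in each age comparison, the 8 called members of largest difference per direction between regions, a set of well-known members, and up to 4 called genes, else the 2 of smallest p, of each other list. Dnaja3, Hspa4l, Hspb2 and Hspb3 fall outside this rule and were named, like the Hspa8 probes, after their values were seen. The members and lists were chosen with earlier results of these data known. Alternatives changed the shift, normalization, filter, probe rule, weights and samples. Motifs were counted on the RefSeq promoters of GRCr8; 18 members had none.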

Additional observations from a re-analysis of the deposited data

Results flagged for a closer look

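In 140 groups of 4 arrays (35 named genes in 4 groups), 11 held 1 array far from the other 3 by Dixon's criterion, which chance gives in about 1 group in 20. In young hippocampus, Dnaja2 stood at 1.687 on array Z, Hsp90ab1 at 4.023 on AB, Hspb1 at 0.684 on Y and Hspb8 at -2.108 on AA. In old hippocampus, Hspa12b stood at -3.021 on AI, Hspa4 at 1.296 on AH and Hspb11 at -1.658 on AG. In young frontal cortex, Dnajc28 stood at -2.995 and Hspa4 at 1.077 on Z, and Dnajc30 at -3.022 on Y. In old frontal cortex, Hsp90aa1 stood at 3.917 on AG.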

How the results depend on the processing

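Each result was recomputed under up to 29 alternatives, 16 of which left out 1 array; no named result reversed its sign while called. In hippocampus 0 chaperone genes were called for age, and 0 for the difference of the age effects, in every alternative run; the fit to 8 arrays gives no such difference. In frontal cortex the count of 1 fell to 0 under quantile normalization, median shift, no filter, a stricter filter, array weights and only the 8 arrays compared, and without the 4 hippocampal arrays richest in choroid plexus signal, the 2 young cortical arrays richest in mural signal, or old arrays AF and AG (these last 3 chosen after seeing the data). Leaving out 1 array gave 0 to 4 calls, with 4 without old frontal cortex AI and 2 without AH; Hspbp1 and Dnajc30 passed without AI (limma adjusted p = 0.0186 and 0.0381) and Dnaja4 without AH (0.0471). In all genes the 92 calls became 737 without AI, 4 without young frontal cortex Z and 3 without AF and AG. Between regions, the 7 calls in young rats became 15 with array weights and 3 without the 2 mural-rich arrays, and 4 to 9 without 1 array (4 without young hippocampus AB or AA or young frontal cortex Z or Y). The 12 in old rats became 4 in only the 8 arrays compared, 7 without the 4 choroid-rich arrays, and 8 to 14 without 1 array (8 without old frontal cortex AI). The cause of these changes was not tested. Whether a title code marks 1 animal is not settled: correlations of same-code deviations ran from -0.171 to 0.282, and 3 of 8 codes correlated best with their own, so the arrays were not treated as paired. With the code as a block (correlation 0.0504) the counts were 0, 1, 0, 8 and 14 for age in hippocampus, age in frontal cortex, their difference, and region in young and old rats. Values near the negative controls limit what can be said of the 10 dim genes, and low signal limits what can be said of dim tested ones such as Dnajc30.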
